A study of Mus musculus with 4 samples.

Results

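The genotype by ischemia interaction asks whether the cortex of P4htm-/- mice answered an ischemic injury differently from WT cortex. For each gene, the response of a genotype is the log2 value of the ipsilateral cortex minus that of the contralateral cortex, and the interaction is the P4htm-/- response minus the WT response. A negative interaction therefore means a less positive response in P4htm-/- mice, and a positive one a more positive response. The interaction uses 4 of the 4 arrays of the series, namely P4htm-/- ipsilateral, P4htm-/- contralateral, WT ipsilateral and WT contralateral cortex, with 1 array each. The P4htm-/- mice carry a constitutive inactivation of P4htm, the gene of P4H-TM, and all mice, P4htm-/- and WT alike, were on the C57BL/6J background and 3 months old. All 4 groups came from mice with a permanent occlusion of the left middle cerebral artery (MCAO), and whole cortexes were taken after 24 h. The contralateral cortex is thus the uninjured side of the operated mice and not tissue of unoperated mice, and both sides of a genotype come from the same animals. Each array holds RNA pooled from 4 mice.

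P4H-TM is a prolyl 4-hydroxylase of the endoplasmic reticulum membrane that can act on the hypoxia-inducible factor HIF, the transcription factor through which cells answer low oxygen. After a permanent MCAO, neurons of the ischemic core die, while microglia, astrocytes and invading leukocytes switch on chemokines, proteases, calcium-binding S100 proteins and interferon response genes. Heat shock chaperones, which refold damaged proteins, are also known to be induced in stressed neurons.

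The deposited log2 values covered 45101 probe sets of a whole-genome mouse expression array, which gave 18194 genes with 1 probe set each, the brightest. A gene was detected when at least 1 array lay above 4.78, a background taken as the 95th percentile of 83 probe sets of sensory receptors (odorant, pheromone and bitter taste), which cortex should not express. This held for 13448 genes, of which 12832 lay above background on all 4 arrays. The array medians ran between 5.53 and 5.55. P4htm itself read 8.23 and 8.27 on the P4htm-/- ipsilateral and contralateral arrays, against 10.02 and 10.03 on the WT ipsilateral and contralateral arrays, so the targeted gene was lower on both P4htm-/- arrays, with an interaction of -0.03. Whether this probe set lies inside the deleted part was not determined. The defining cortical markers measured here (Slc17a7, Neurod6, Tbr1, Cux2 and Rorb) read 8.61 to 10.4 on all arrays. Markers of striatal projection neurons were present too, with Drd1, Drd2 and Ppp1r1b at 7.61 to 10.11. Each group has 1 array, so none of the differences below could be set against a spread between replicates and none carries a p-value. The small number of arrays bounds how precise any value can be. The interaction of the receptor probe sets had an SD of 0.295, and probe sets of the same gene above background on all 4 arrays differed with an SD of 0.196, which is technical scatter and holds no variation between mice.

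A gene was called when its interaction reached 1.5-fold, in either direction. Of the 13448 detected genes, 253 were called, or 1.88%. The interaction was negative for 182 of them, or 1.35% of the genes tested, and positive for 71, or 0.528%. With the slope of the interaction on the mean response removed, the split was 116 negative and 87 positive. Among all detected genes the signs were balanced, with 6703 positive and 6468 negative values and a median of 0. The called share depended on signal, being 4.21% of genes with a mean level of 4.78 to 6, 1.8% at 6 to 8, 0.604% at 8 to 10 and 0.414% above 10, and 12% of the receptor probe sets were past the same threshold. Of the called genes, 184 lay above background on all 4 arrays, 137 with a negative and 47 with a positive interaction. For the remaining ones at least 1 array was at background. With values below background raised to it, the interaction becomes an upper bound for 25 genes and a lower bound for 17, and no bound can be given for 27. Just inside the threshold were Nts, Serp2 and Chchd5 at -0.59 and Mkx at 0.59. Just outside were Sh2d2a, Agmat and Commd2 at -0.58 and Gpr161 and Cited4 at 0.58.

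**Figure D1:**
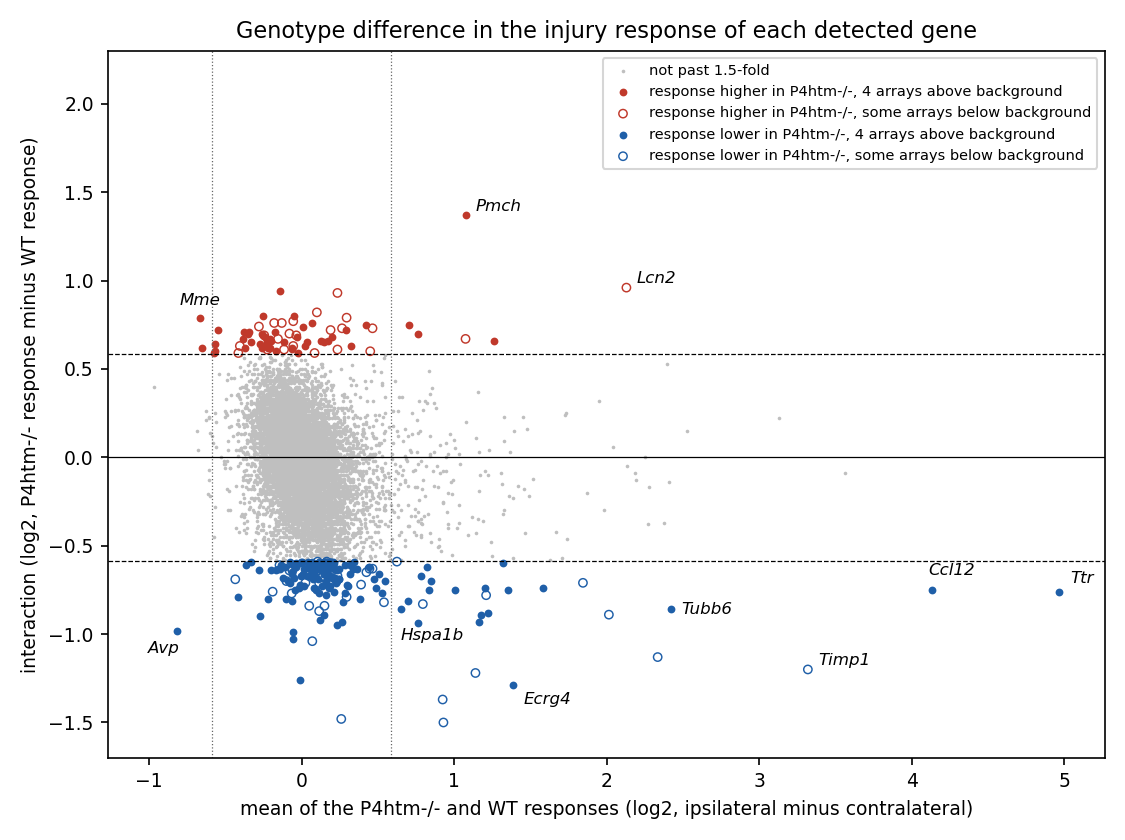
Each point is 1 of the 13448 detected genes. The x axis is the mean of the P4htm-/- and WT responses (log2, ipsilateral minus contralateral), the y axis is the interaction (log2), dashed lines mark 1.5-fold in the interaction, dotted lines mark 1.5-fold in the mean response, and open symbols have at least 1 array at background. Most genes with a high mean response lie below 0, from Ecrg4 at -1.29 to Ttr at -0.76, while Pmch at 1.37 and Lcn2, at or above 0.29, stand above it.

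Each called gene was placed in 1 of 3 classes by its responses. The response was smaller in size in P4htm-/- than in WT cortex for 169 genes (weaker), larger for 54 (stronger), and of the other sign for 30, with both responses at or past 0.2925 (opposite). The weaker class was made up of 129 genes with a negative interaction and 40 with a positive one. In 97 and 29 of these, all 4 arrays were above background. The stronger class held 31 genes with a negative and 23 with a positive interaction, and the opposite class 22 and 8. The class goes by size alone. Of the 129 weaker genes with a negative interaction, 44 had a positive response in P4htm-/- cortex, that is, a smaller increase, and 85 had a negative one that was smaller in size than the WT increase. With the slope on the mean response removed, a different set of genes was called, and these were classed by the same unadjusted responses. In that set 81 genes were weaker and 92 stronger, so the order of the classes turned.

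The interaction can equally be read as the genotype difference on the ipsilateral side minus the genotype difference on the contralateral side. The ipsilateral difference was the larger one in size for 155 called genes and the contralateral difference for 98. This split was uneven between the classes. The ipsilateral side led for 110 of the 169 weaker genes and 22 of the 30 opposite genes. In contrast, 31 of the 54 stronger genes were led by the contralateral side. Of the 23 genes with a stronger increase in P4htm-/- mice, 19 were of this kind, that is, their genotype difference was mainly a lower value in uninjured P4htm-/- cortex. Only 13 of these 23 lay above background on all 4 arrays.

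**Figure D2:**
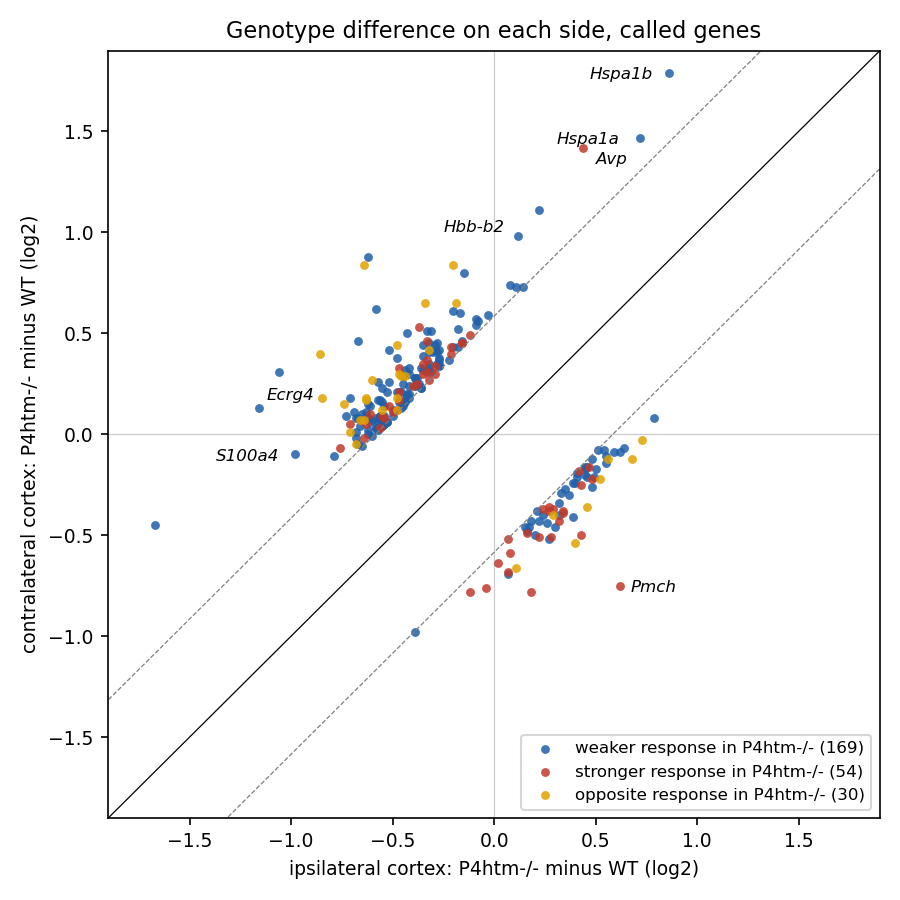
Each point is 1 of the 253 called genes, coloured by class. The x axis is the P4htm-/- minus WT difference in ipsilateral cortex and the y axis the same difference in contralateral cortex (both log2); the solid line marks equal differences and the dashed lines a 1.5-fold interaction. Ecrg4 and S100a4 differ mainly on the ipsilateral side, Hspa1a, Hspa1b, Avp and Hbb-b2 mainly on the contralateral side, and Pmch in opposite directions on the 2 sides.

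To see how the injury genes as a group behaved, genes were chosen by the mean of both responses, which uses the 4 arrays in a combination independent of the interaction when all arrays carry equal noise. A choice by the WT response alone would be tied to the WT arrays. The mean response was at least 1.5-fold up for 219 genes, or 1.63% of the detected genes, and at least 1.5-fold down for 16, or 0.119%. Among the 219 genes, 151 had a negative and 66 a positive interaction. Their median response was 0.83 in P4htm-/- cortex and 0.98 in WT cortex, and the median interaction was -0.17. At 2-fold up there were 85 genes, 59 with a negative and 25 with a positive interaction, with a median response of 1.34 in P4htm-/- and 1.58 in WT cortex. At 4-fold up there were 20 genes, 14 negative and 5 positive. The 16 genes with a lower value on the injured side had 11 positive and 5 negative interactions. Their median response was -0.57 in P4htm-/- and -0.71 in WT cortex, also smaller in size in P4htm-/-. The sides differed, however. The median P4htm-/- minus WT difference of the 16 genes was -0.055 on the injured and -0.235 on the uninjured side, against -0.17 and -0.02 for the 219 genes. Fewer cells of a type and less RNA per cell cannot be told apart in these bulk samples. Of the 219 genes, 29 were called with a negative and 6 with a positive interaction, against 1.35% and 0.528% of all detected genes. With the slope of all genes on the mean response removed, the median of the 219 genes was 0.157, with 78 negative and 141 positive.

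The strongest injury genes fell on both sides of this median. Ttr, which encodes transthyretin, the thyroid hormone carrier of the choroid plexus, read 13.62 on the ipsilateral and 9.03 on the contralateral P4htm-/- array, against 14.06 and 8.71 on the WT ipsilateral and contralateral arrays. Its response was 24.1-fold in P4htm-/- and 40.8-fold in WT cortex. Ccl12, a chemokine that attracts monocytes, read 8.99 and 5.23 on the P4htm-/- ipsilateral and contralateral arrays, against 9.66 and 5.15 on the WT ones. Ccl12 thus started from like values on the uninjured side and was 13.5-fold higher after injury in P4htm-/- and 22.8-fold in WT cortex, an interaction of -0.75. With that slope removed, the interactions were 0.78 for Ttr and 0.53 for Ccl12. Timp1, an inhibitor of matrix metalloproteinases, read 7.71 and 4.99 in P4htm-/- ipsilateral and contralateral cortex, against 8.29 and 4.37 in WT cortex, where the contralateral value lay below background. Its interaction was therefore at or below -0.79. Gfap, the intermediate filament of astrocytes, had a response of 1.83 in P4htm-/- and 2.13 in WT cortex, and Cd44, a hyaluronan receptor of reactive glia and leukocytes, one of 2.08 and 2.46 in the same order, so neither reached the threshold. Serpina3n, a serine protease inhibitor of reactive astrocytes, with responses of 2.14 in P4htm-/- and 2.23 in WT, and A2m, a protease-trapping plasma protein, with 2.60 in P4htm-/- and 2.45 in WT, were nearly equal between the genotypes. The 3 probe sets of Socs3, the feedback inhibitor of Stat3 signaling, disagreed, with interactions of -0.69, -0.32 and 0.06. Not all injury genes thus had a smaller response in P4htm-/- mice.

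Among the genes above background on all 4 arrays, Ecrg4 had the lowest interaction, at -1.29. Ecrg4 encodes a secreted peptide precursor made by choroid plexus and ependyma. It read 7.22 and 6.48 on the P4htm-/- ipsilateral and contralateral arrays, against 8.38 and 6.35 on the WT ones. The uninjured sides were alike, and the WT ipsilateral array stood alone. Its other probe set gave -1.02. S100a4, a calcium-binding protein of migrating leukocytes and fibroblasts, showed the same arrangement, with 6.58 and 5.80 in P4htm-/- ipsilateral and contralateral cortex, against 7.56 and 5.90 in WT cortex. Wfdc17, a small antiprotease of activated macrophages, read 6.39 and 6.10 in P4htm-/- ipsilateral and contralateral cortex, against 6.91 and 5.68 in WT cortex. Here the P4htm-/- values lay between the WT ones, with an interaction of -0.94. Dpm3, a subunit of the dolichol-phosphate-mannose synthase, had 6.90 and 6.17 in P4htm-/- ipsilateral and contralateral cortex, against 7.61 and 5.99 in WT cortex. Tubb6, a beta-tubulin of injured and dividing cells, had a response of 1.99 in P4htm-/- and 2.85 in WT cortex, although the mean over its probe sets gave an interaction of only -0.35.

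Further called genes with a high mean response were Prg4 (the lubricant proteoglycan 4), Cd52 (a leukocyte surface antigen), Upp1 (uridine phosphorylase 1), Ecscr (an endothelial surface protein), P2ry6 (the UDP receptor of phagocytic microglia) and Mgp (matrix Gla protein). Their interactions were -0.74, -0.75, -0.75, -0.70, -0.62 and -0.67. Mmp3 and Mmp12, proteases of the extracellular matrix, Lif (leukemia inhibitory factor), Thbs1 (thrombospondin 1), and Fosl1, a member of the AP-1 transcription factor, also passed the threshold with a negative difference. In each of these 5 genes both contralateral arrays lay below background, and for Mmp12 and Thbs1 the P4htm-/- ipsilateral array did as well, so that they were detected on the WT ipsilateral array alone. The interaction of these genes was not measured, and no value is given. Adm, which encodes the vasodilator adrenomedullin and is a known HIF target, read 5.92 and 5.63 in P4htm-/- ipsilateral and contralateral cortex, against 6.12 and 5.02 in WT cortex. Its interaction of -0.81 was not shared by its other probe set, at 0.22.

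The S100 family showed the lowest median among the lists with more than 8 detected members. All 9 detected members had a negative interaction, with a median of -0.40, against 48.1% negative and a median of 0 among all detected genes. The median response was 0.36 in P4htm-/- and 0.94 in WT cortex. S100a9, the calprotectin subunit of neutrophils, read 6.96 and 5.39 in P4htm-/- ipsilateral and contralateral cortex, against 6.74 and 4.28 in WT cortex, where the contralateral value was below background, so its interaction was at or below -0.39. Its partner S100a8, also with a WT contralateral value below background, was at or below -0.08. S100a4 and S100a9 were the 2 called members, against 1.35% of all detected genes. S100a10, S100a16, S100a13, S100a6 and S100a1 lay between -0.58 and -0.36, and S100b, the astrocyte member, at -0.16. The difference was mostly ipsilateral, with a median P4htm-/- minus WT difference of -0.52 on the injured and -0.08 on the uninjured side. S100 genes are short, with a median span of 3.3 kb, and gene span moved with the interaction, as described further on. With the median of genes of like span removed, the median of the S100 proteins was -0.36.

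Genes of invading and activated phagocytes followed the same direction. Of 24 detected macrophage and phagocyte genes, 18 had a negative and 6 a positive interaction, with a median of -0.16, and the median response was 0.84 in P4htm-/- and 1.24 in WT cortex. With the slope on the mean response removed, the median was 0.092. S100a4 and Ccl6 were called with a negative interaction, or 8.33% of the list, against 1.35% of all detected genes. Ccl6, a chemokine of macrophages, read 6.79 and 5.96 in P4htm-/- ipsilateral and contralateral cortex, against 7.42 and 5.85 in WT cortex. Hmox1, the heme-degrading oxygenase, had -0.57, led by the uninjured side, and Fcgr1, a high-affinity Fc receptor, -0.37. Of 25 markers of resident microglia, 14 were negative and 10 positive, and the median was -0.01. They ran from -0.52 for Tyrobp, an adaptor of microglial receptors, to 0.44, and Cd68, a lysosomal protein, had -0.44. Of 12 neutrophil markers, 6 were negative and 6 positive. The 2 called members, S100a9 among them, were 16.7% of the list, against 1.35% of all detected genes called with a negative interaction. For S100a9 the WT contralateral value lay below background, and its bound of at or below -0.39 does not by itself reach the threshold. The granule gene Ngp was above background on the P4htm-/- ipsilateral array alone. Among 32 reactive astrocyte genes 20 were negative, with a median of -0.09 that was 0.226 with the slope removed. Called were 4 with a negative and 1 with a positive interaction, against 1.35% and 0.528% of all detected genes. The positive one was Lcn2 and the lowest Timp1, each with 1 contralateral value below background. Their bounds were at or above 0.29 and at or below -0.79 in this order, so the bound of Lcn2 does not by itself reach the threshold.

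Signaling genes of inflammation were split. Of 33 genes of the TNF superfamily and of NF-kappaB feedback, 26 had a negative and 7 a positive interaction, with a median of -0.17. Called with a negative interaction was 1, Traf5, or 3.03%, against 1.35% of all detected genes. Traf5 lay above background on the WT ipsilateral array alone, so its interaction has no bound. With the values below background raised to it, the interaction was -0.22, short of the threshold. Among 22 chemokines, 14 were negative and 8 positive, with a median of -0.205 that was 0.107 with the slope removed. Ccl12 and Ccl6 were called with a negative interaction and Ccl4, a chemokine of activated myeloid cells, with a positive one. These were 9.09% and 4.55% of the chemokines, against 1.35% and 0.528% of all detected genes. Ccl4 read 6.77 and 5.18 in P4htm-/- ipsilateral and contralateral cortex, against 6.75 and 5.82 in WT cortex. Its injured sides were equal, and the genotypes differed on the uninjured side. Ccl5, a chemokine of T cells and glia, showed the same pattern at 0.58, just outside the threshold. Its P4htm-/- contralateral value of 4.78 lay at background, so this interaction is a lower bound. Lcn2, an iron-trapping acute phase protein of reactive astrocytes, read 6.72 and 4.11 in P4htm-/- ipsilateral and contralateral cortex, against 6.54 and 4.89 in WT cortex. The P4htm-/- contralateral value lay below background, and its interaction was at or above 0.29. Tlr2, a receptor for bacterial and damage signals, was likewise at or above 0.59. Ms4a6c, a membrane protein of monocytes, read 6.54 and 5.43 in P4htm-/- ipsilateral and contralateral cortex, against 6.06 and 5.65 in WT cortex, an interaction of 0.70 to which both sides contributed.

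Interferon response genes had, on balance, a slightly more positive response in P4htm-/- cortex. Of 39 detected members, 25 had a positive and 14 a negative interaction, the median was 0.08, and none was called. The median response was 0.59 in P4htm-/- and 0.53 in WT cortex. Over the 39 members, by the values as read, the interaction ran from -0.57 to 0.53, so the lowest member was larger in size than the highest. Among members above background on all 4 arrays, Gbp6, an interferon-induced GTPase, had the highest interaction, at 0.49, and Ifit3, an antiviral protein, had 0.36. Cxcl10, a T cell attracting chemokine, read 6.48 and 3.82 in P4htm-/- ipsilateral and contralateral cortex, against 6.33 and 4.20 in WT cortex. Both contralateral values lay below background, and with those raised to background the interaction was 0.15 and without a bound. Trim34a, a family member of the antiviral Trim proteins, is outside this list and was called, at 0.75. The upstream sequence of Cxcl10 is shown as an example of an interferon response gene. The 250 bases before its start (chr5:92348890-92349139, minus strand, RefSeq, GRCm38.p6) hold the core of the interferon-stimulated response element (GAAA, 2 free bases, GAAA) and an NF-kappaB-type motif (GGG, 2 free bases, TTCCC), both in capitals.
Cxcl10: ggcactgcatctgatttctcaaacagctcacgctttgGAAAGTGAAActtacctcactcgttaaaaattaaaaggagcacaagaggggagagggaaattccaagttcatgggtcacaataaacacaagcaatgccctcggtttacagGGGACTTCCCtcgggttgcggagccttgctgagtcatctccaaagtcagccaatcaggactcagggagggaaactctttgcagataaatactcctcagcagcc
On either strand, the interferon-type core occurred in 2.98% of 32851 such windows of the RefSeq promoter table and in 31.6% of the 38 windows of the interferon list, and the NF-kappaB-type motif in 1.53% of all windows. A match is a description of the sequence and not a bound site.

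In a pair of heat shock genes the genotype difference was larger on the uninjured side. Hspa1b, an inducible Hsp70, read 12.70 and 12 on the P4htm-/- ipsilateral and contralateral arrays, against 11.84 and 10.21 on the WT ones. Both P4htm-/- values were above both WT values. The response was 1.62-fold in P4htm-/- and 3.10-fold in WT cortex, an interaction of -0.93, and the P4htm-/- minus WT difference was 0.86 on the injured and 1.79 on the uninjured side. Hspa1a, its near-identical copy, read 10.79 and 9.81 in P4htm-/- ipsilateral and contralateral cortex, against 10.07 and 8.34 in WT cortex, with an interaction of -0.75. Signals of the 2 copies may mix on the array, so they count as 1 observation. Of 30 heat shock chaperones these were the 2 called, or 6.67%, against 1.35% of all detected genes called with a negative interaction. In this list 17 had a negative and 13 a positive interaction, and the median was -0.025. Hspe1, the mitochondrial Hsp10, had -0.48, Hspb1, a small heat shock protein, -0.32, and Bag3, an Hsp70 cochaperone, -0.21. The members ran from -0.93 for Hspa1b to 0.43. The upstream windows of Hspa1a (chr17:34972157-34972406) and Hspa1b (chr17:34959239-34959488), both on the minus strand of GRCm38.p6 and taken from RefSeq, are shown to make the likeness of the copies visible. They were the same at 247 of 250 bases, and the capitals mark the heat shock element motif GAANNTTC.
Hspa1a: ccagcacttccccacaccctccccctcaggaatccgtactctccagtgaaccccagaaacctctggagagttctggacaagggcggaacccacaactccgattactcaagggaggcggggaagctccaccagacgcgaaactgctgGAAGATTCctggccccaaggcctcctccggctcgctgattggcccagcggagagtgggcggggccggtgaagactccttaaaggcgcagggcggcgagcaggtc
Hspa1b: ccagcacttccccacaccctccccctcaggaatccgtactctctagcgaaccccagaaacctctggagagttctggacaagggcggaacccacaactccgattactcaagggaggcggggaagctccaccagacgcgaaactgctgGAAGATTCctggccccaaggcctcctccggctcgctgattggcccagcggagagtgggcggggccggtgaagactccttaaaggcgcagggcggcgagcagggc
This motif was found on either strand in 6.69% of all windows and in 32.4% of the 37 windows of the heat shock list.

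Neuropeptides best known from the hypothalamus were among the lowest and highest genes of the interaction. Of 8 detected members of this list, 7 had a negative interaction, with 4 called, and 1 a positive one, also called, and the median was -0.58. Among all detected genes, 1.35% were called with a negative and 0.528% with a positive interaction. Oxt (oxytocin) read 7.96 and 8.51 in P4htm-/- ipsilateral and contralateral cortex, against 8.30 and 7.86 in WT cortex. Avp (vasopressin) read 8.03 and 9.34 in P4htm-/- ipsilateral and contralateral cortex, against 7.59 and 7.92 in WT cortex. For Avp and Oxt, as for Gal (galanin) at -0.95, the P4htm-/- contralateral array was the highest of the 4. Pomc, the precursor of melanocortins and endorphin, had -0.73, Trh (thyrotropin-releasing hormone) -0.43, Cartpt (the CART peptide) -0.36 and Hcrt (orexin) -0.08. Pmch, the precursor of melanin-concentrating hormone, had the highest interaction of all genes, with 7.40 and 5.64 in P4htm-/- ipsilateral and contralateral cortex, against 6.78 and 6.39 in WT cortex. Its response was 3.39-fold in P4htm-/- and 1.31-fold in WT cortex. Each array was a pool of 4 dissected cortexes, and the part of tissue from outside the cortex in these values was not tested.

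Markers of other tissues next to the cortex also moved with the interaction. Of 20 choroid plexus and ependyma markers, 17 had a negative and 3 a positive interaction, with a median of -0.245 and 3 called, against 1.35% of all detected genes. These were Ecrg4, Ttr and Calml4, the last with both contralateral values below background and no bound. Their median level was 5.92 and 5.74 on the P4htm-/- ipsilateral and contralateral arrays, against 6.30 and 5.93 on the WT ones. Of the defining choroid plexus genes, Ttr stood at 14.06 on the WT ipsilateral array, Clic6, a chloride channel protein, had an interaction of -0.22, Folr1, a folate receptor, -0.11 with both contralateral values below background, and Kl (klotho) 0.31 with the P4htm-/- contralateral value at background. Of 26 meningeal and fibroblast matrix genes, 16 were negative and 10 positive, with a median of -0.09 and 3 called, against 48.1% negative and 1.35% called among all detected genes. They were Col6a3 at -0.82, Col6a1 at -0.68 and Mgp at -0.67. These are collagen VI chains and a calcification inhibitor of vessels and fibroblasts. Hbb-b2, a beta-globin of red blood cells, read 6.26 and 6.04 in P4htm-/- ipsilateral and contralateral cortex, against 6.14 and 5.06 in WT cortex. The WT contralateral array was the low one, although the mice had been perfused. The part of these tissues in the phagocyte and S100 results was not tested.

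**Figure D3:**
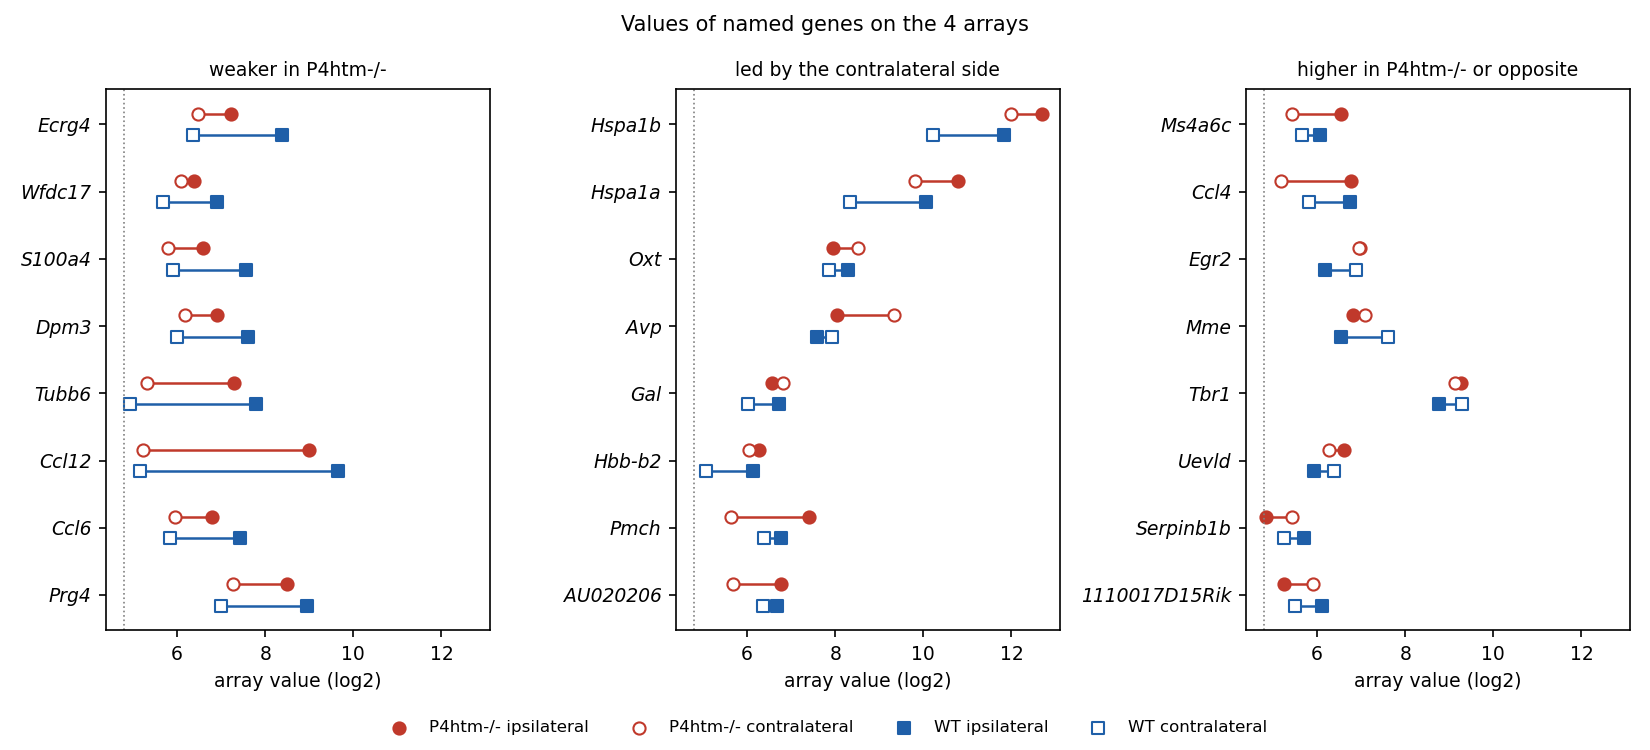
Values (log2) of named genes on the 4 arrays, with P4htm-/- drawn as red circles above WT as blue squares, filled for ipsilateral and open for contralateral cortex, and the dotted line at the background of 4.78. In the left panel the filled blue squares lie farthest right; in the middle panel the open symbols differ most, as for Hspa1b at 12 in P4htm-/- and 10.21 in WT contralateral cortex; in the right panel the WT response is the lower one, except for Serpinb1b and 1110017D15Rik, where it is the higher one.

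The broadest shift concerned abundant housekeeping genes. Of 47 cytosolic ribosomal protein genes, 46 had a negative interaction and 1 a positive one, with a median of -0.27. Of 76 mitochondrial ribosomal protein genes, 70 were negative and 6 positive, with a median of -0.24. Of 74 subunits of oxidative phosphorylation, 64 were negative and 9 positive, with a median of -0.23. Of 45 proteasome subunits and activators, 33 were negative and 11 positive, with a median of -0.18. In WT cortex the median response of these lists was 0.15 to 0.23, whereas in P4htm-/- cortex it lay between -0.085 and 0. The difference was on the injured side, where the median P4htm-/- minus WT difference was -0.22 to -0.25, against 0 to 0.02 on the uninjured side. Of the 242 genes together, 6 were called, all with a negative interaction, which is 2.48% against 1.35% of all detected genes. They were Rps27l, Rpl12 and Rpl14 of the cytosolic ribosome, Mrpl41 of the mitochondrial ribosome, Cox7c of cytochrome c oxidase and Atp5e of the ATP synthase.

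Rps27l, a ribosomal protein homolog and p53 target, read 9.76 and 9.62 in P4htm-/- ipsilateral and contralateral cortex, against 10.38 and 9.47 in WT cortex. Mrpl41 read 10.97 and 11.12 in P4htm-/- ipsilateral and contralateral cortex, against 11.55 and 11.09 in WT cortex. In both genes the WT ipsilateral array was the highest. The probe sets of Rpl12, Rpl14 and Cox7c read 6.00 to 6.93 over the 4 arrays. The median level per array was 12.66 to 12.95 for the cytosolic ribosomal and 11.98 to 12.27 for the oxidative phosphorylation list. These 3 probe sets, and that of Rps25 below, were thus far dimmer than most members of their lists. Psma2, a subunit of the proteasome core, had -0.45, and Psmg4, an assembly chaperone, -0.50. Rps25, a protein of the small ribosomal subunit, had -0.57, just outside the threshold, with 7.84 and 7.84 in P4htm-/- ipsilateral and contralateral cortex, against 8.27 and 7.70 in WT cortex. Its upstream window (chr9:44407464-44407713, plus strand, RefSeq, GRCm38.p6) is shown as an example from this group, with the ETS-type motif CCGGAAGT in capitals.
Rps25: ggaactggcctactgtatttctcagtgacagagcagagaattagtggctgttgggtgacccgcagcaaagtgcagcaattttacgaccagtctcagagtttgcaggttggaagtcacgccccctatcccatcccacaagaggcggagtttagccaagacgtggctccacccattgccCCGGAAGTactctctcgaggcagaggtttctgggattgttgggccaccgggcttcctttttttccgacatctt
On either strand this motif occurred in 2.88% of all windows, in 16.7% of the 48 windows of the cytosolic ribosomal list, in 13.7% of the 73 windows of the mitochondrial ribosomal list, in 15% of the 40 windows of the proteasome list and in 4.48% of the 67 windows of the oxidative phosphorylation list.

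Neuronal genes ran the other way. Of 28 neuron markers, 26 had a positive and 2 a negative interaction, with a median of 0.165, and the median response was -0.005 in P4htm-/- and -0.175 in WT cortex. Thus the lower values that WT cortex showed on the injured side were close to absent in P4htm-/- cortex. Tbr1, a transcription factor of deep-layer cortical neurons, was the called member, with 9.26 and 9.13 in P4htm-/- ipsilateral and contralateral cortex, against 8.76 and 9.30 in WT cortex. Syp (synaptophysin) had 0.37 and Nefm, the medium neurofilament, 0.33. Of 45 voltage-gated ion channel subunits, 36 were positive and 9 negative, with a median of 0.12. Of 22 glutamate receptor subunits, 14 were positive and 6 negative, with a median of 0.125, and the kainate receptor Grik3, at 0.62, was called. Of 17 striatal projection neuron markers, 14 were positive and 3 negative, with a median of 0.24, led by Scn4b, a sodium channel beta subunit, at 0.54 and the phosphodiesterase Pde10a at 0.50. Together, 89 of 111 genes of these 4 lists were positive and 20 negative. Called with a positive interaction was 1 gene each of the neuron, channel and glutamate receptor lists. These were 3.57%, 2.22% and 4.55% of the lists, against 0.528% of all detected genes. The channel gene, Cacna1f, lay above background on the P4htm-/- ipsilateral array alone, so its interaction has no bound. With the values below background raised to it, the interaction was 0.16, short of the threshold. Of 49 immediate early and activity-induced genes, 36 were positive and 13 negative, with a median of 0.13. Egr2, an activity-induced zinc finger factor, read 6.97 and 6.96 in P4htm-/- ipsilateral and contralateral cortex, against 6.18 and 6.88 in WT cortex. The WT ipsilateral array alone was low. Mme (neprilysin, a peptidase that degrades amyloid beta) had 0.79, with a response of -0.27 in P4htm-/- and -1.06 in WT cortex, although the mean over its probe sets gave 0.48.

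**Figure D4:**
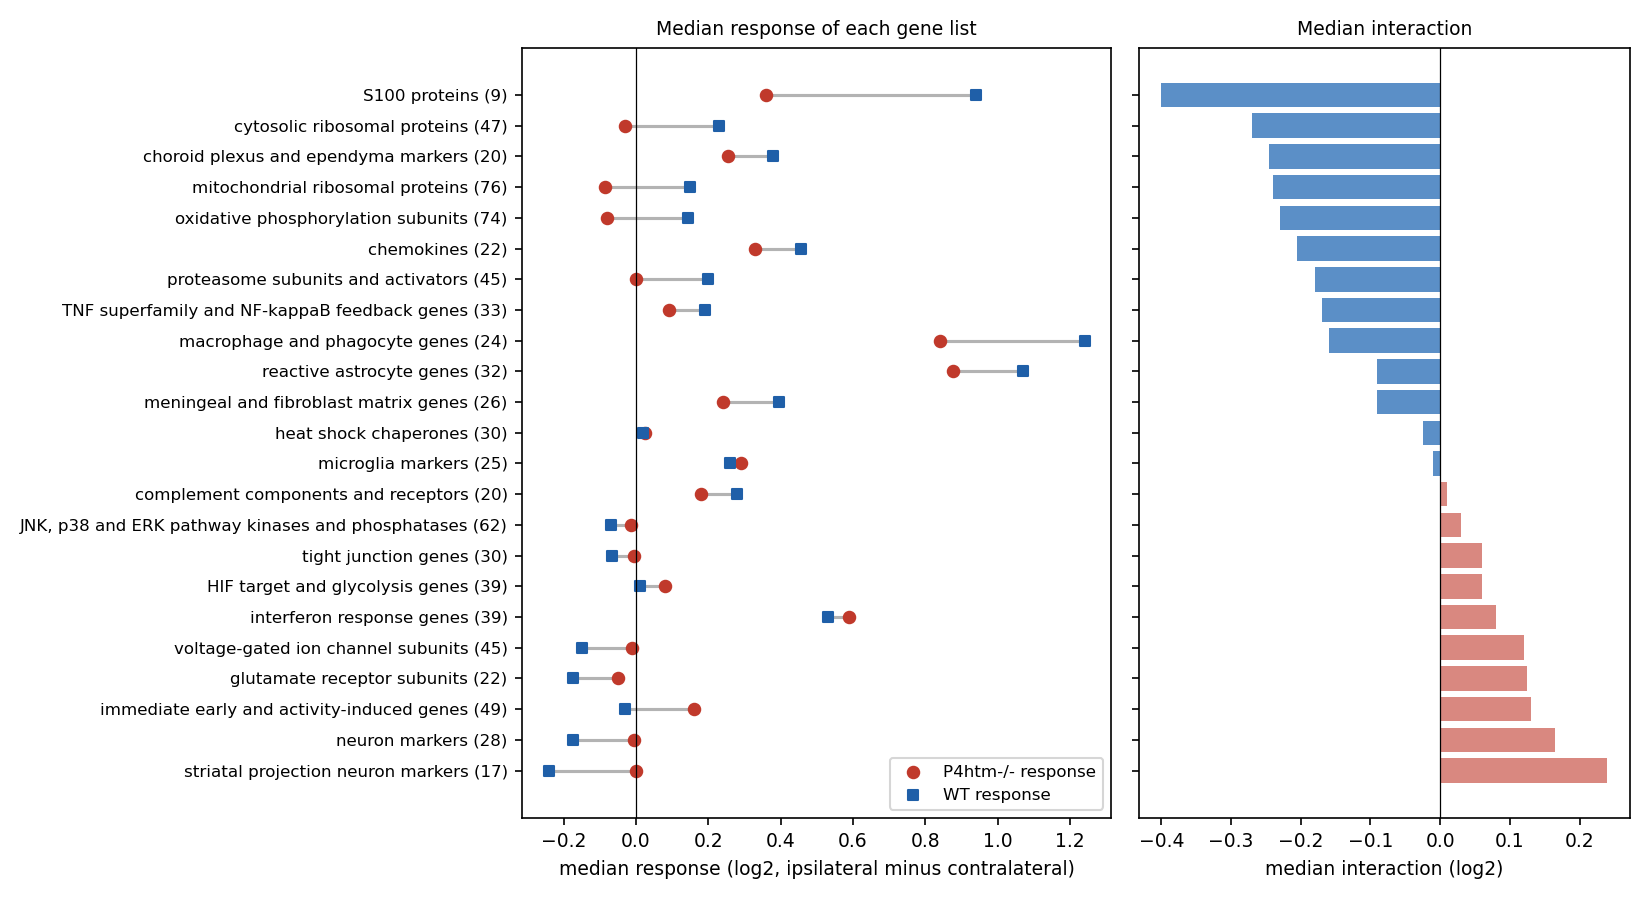
Left, median response (log2, ipsilateral minus contralateral) of 23 gene lists in P4htm-/- (red circles) and WT cortex (blue squares), with the number of detected members after each name. Right, bars give the median interaction of the same lists (log2), from -0.40 for S100 proteins to 0.24 for striatal projection neuron markers; the cytosolic ribosomal list stands at -0.27 and the neuron markers at 0.165.

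Gene span moved with these lists. When the detected genes were split into 5 equal bins by the length of the gene in the genome, the median interaction was -0.09 in the bin with the shortest genes, followed by -0.04, 0, 0.04 and 0.09 in the bin with the longest. The share of genes with a negative interaction was 63.7% among the shortest and 29.6% among the longest. In WT cortex the median response of the shortest bin was 0.07 and that of the longest -0.10, whereas in P4htm-/- cortex both were near 0, at -0.03 and -0.01. The median span was 3.35 kb for the cytosolic ribosomal list and 56.2 kb for the neuron markers. Array controls also differed. The 3′ probe set of Gapdh exceeded its 5′ probe set by 1.16 and 1.33 on the P4htm-/- ipsilateral and contralateral arrays, against 1.10 and 0.94 on the WT ones. For beta-actin these differences were 1.78 and 1.97 on the P4htm-/- arrays, against 1.73 and 1.67 on the WT arrays. Both ratios were highest on the P4htm-/- contralateral array and lowest on the WT contralateral array, which gives interactions of -0.33 and -0.25. The labeling spike-in controls had an interaction of -0.19 and the hybridization controls one of -0.03. With the median of genes of like span removed, a choice made after seeing the data, the list medians were -0.16 for cytosolic ribosomal, -0.195 for mitochondrial ribosomal, -0.175 for oxidative phosphorylation, -0.12 for proteasome genes, 0.145 for neuron markers, 0.23 for striatal markers, 0.08 for voltage-gated channel subunits and 0.015 for glutamate receptor subunits. The part of RNA quality in these results was not tested.

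**Figure D5:**
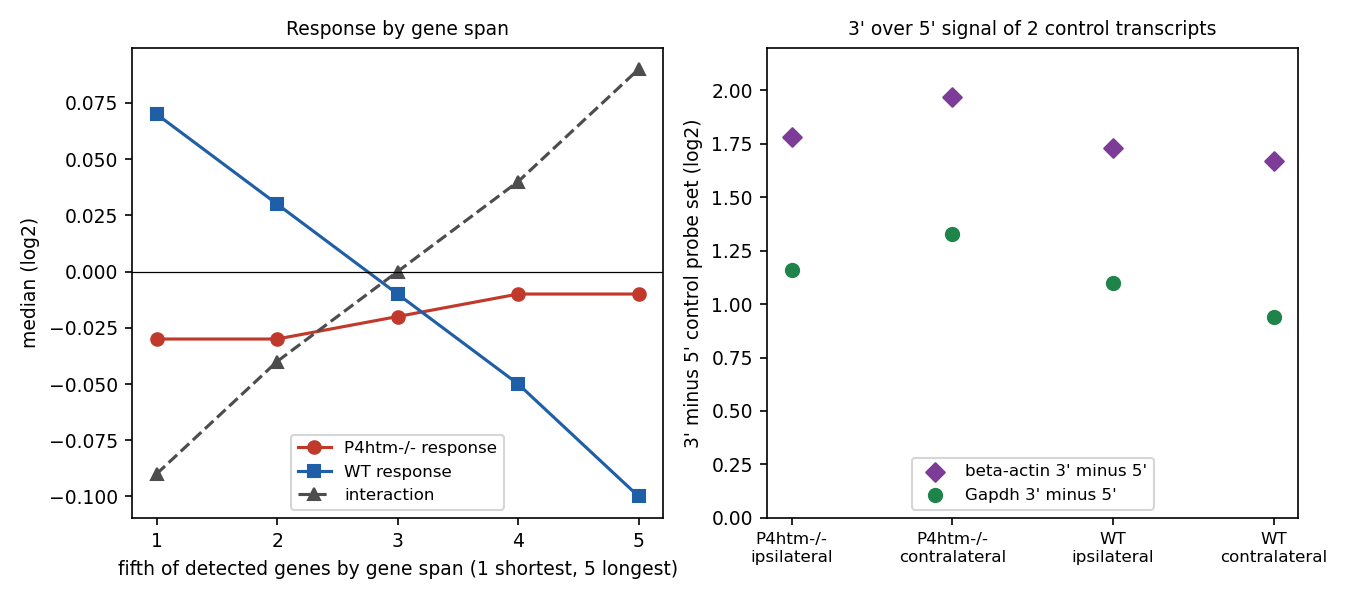
Left, median P4htm-/- response, WT response and interaction (log2) in 5 bins of the detected genes by gene span; the WT line runs between 0.07 and -0.10 and the P4htm-/- line stays between -0.03 and -0.01. Right, 3′ minus 5′ control probe set (log2) on each array for beta-actin and Gapdh, highest on the P4htm-/- contralateral array at 1.97 and 1.33.

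Several pathways that are commonly examined after stroke had a median interaction close to 0. Of 30 tight junction genes, 19 were positive and 11 negative, with a median of 0.06. Cldn1 (claudin 1) was called at 0.68, with 5.34 and 4.80 in P4htm-/- ipsilateral and contralateral cortex, against 4.91 and 5.05 in WT cortex, all close to background, and the mean over its probe sets gave 0.12. Ocln (occludin) had an interaction of 0.03 by its brighter probe set and -0.35 by the other, Tjp1 (zonula occludens 1) 0.09 and Cldn5 (claudin 5) -0.18. Of 62 kinases and phosphatases of the JNK, p38 and ERK pathways, 38 were positive and 24 negative, with a median of 0.03 and none called, the ends being Mapk12 (p38 gamma) at -0.54 and Dusp4, a MAP kinase phosphatase, at 0.42. Of 20 complement components and receptors, 10 were positive and 9 negative, with a median of 0.01 and none called. Of 39 HIF target and glycolysis genes, 23 were positive and 16 negative, with a median of 0.06. Adm was the member called with a negative interaction, and Pmaip1, the BH3-only protein Noxa, the one with a positive interaction, at 0.63. The 14 detected HIF subunits and hydroxylases, P4htm included, had a median of -0.015 and none was called. Endothelial markers had a median of 0.05, with Emcn (endomucin) called at 0.66. Cldn1, Pmaip1 and Emcn were 3.33%, 2.56% and 4.17% of their lists, and Adm was 2.56%. Among all detected genes, 0.528% were called with a positive and 1.35% with a negative interaction. The Emcn values of 6.04 and 5.58 in P4htm-/- ipsilateral and contralateral cortex, against 6.16 and 6.36 in WT cortex, differed mainly on the uninjured side.

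Genes whose responses ran in opposite directions were mostly dim. Of the 30 in this class, 21 lay above background on all 4 arrays, and their median levels ran between 5.37 and 5.78. 1110017D15Rik read 5.26 and 5.90 in P4htm-/- ipsilateral and contralateral cortex, against 6.12 and 5.50 in WT cortex, which gave responses of -0.64 and 0.62 in the same order. Serpinb1b, an inhibitor of leukocyte proteases, read 4.85 and 5.42 in P4htm-/- ipsilateral and contralateral cortex, against 5.70 and 5.24 in WT cortex. For both, the WT ipsilateral array was the highest and the P4htm-/- ipsilateral array the lowest. Nthl1, a DNA repair glycosylase, had responses of -0.34 in P4htm-/- and 0.58 in WT cortex, and Susd3, a membrane protein of the sushi domain type, -0.30 and 0.59. In the other direction, Uevld had responses of 0.35 in P4htm-/- and -0.45 in WT cortex, and Cdkl1, a cyclin-dependent kinase-like protein, 0.45 and -0.31. Each of these rests on 4 single arrays. Zbtb26 at 0.80, AU020206 at 0.75, Vgll3 at 0.74, Slc31a1 (the copper transporter Ctr1) at 0.72, Myh3 (embryonic myosin) at 0.72, Ifi27l2b at 0.71 and Chsy3 (a chondroitin sulfate synthase) at 0.71 completed the positive end of the genes above background on all arrays. The other probe set above background on all arrays gave only 0.06 for Vgll3, 0.05 for Slc31a1 and 0.2 for Cdkl1. Slc26a7 (an anion exchanger) at -0.93 and 6330415G19Rik at -0.90 completed the negative end.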

How the data were processed

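The authors hybridized RNA pooled from 4 mice per group to 1 Affymetrix whole-genome mouse array per group and deposited log2 values per probe set. The submitters' processing notes name RMA, which corrects background and brings the arrays to a common distribution, so a change shared by all genes is removed; the methods name GenePattern, without versions in the sources used here. The log base was taken as 2 from the range, 2.51 to 14.9. Of 45101 probe sets, 34958 name 1 gene and were used, and 10143 name several or none. Symbols were updated by Entrez ID for 34754, and gene spans came from RefSeq for GRCm38.p6. The value table held 0 unused columns.

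The interaction, its classes and the median of 52 gene lists were computed without any test, since each group has 1 array. The members and lists were chosen with earlier results of these data known. Named genes are the 15 lowest and 15 highest interactions above background on all arrays with probe sets of 1 sign, up to 10 opposite ones, called or extreme list members and checks. Prg4, Cd52, Upp1, Ecscr and P2ry6 were named after their values were seen. Alternatives were the probe set choice, cyclic loess, median centring, detection filters, the threshold, removal of the slope on the mean response and, chosen after seeing the data, of gene span. The steps were tested on simulated data. Python 3.11.15, numpy 2.4.6, pandas 2.3.3, R 4.3.3 and limma 3.58.1 were used.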

Additional observations from a re-analysis of the deposited data

Results flagged for a closer look

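The following named genes had responses of opposite sign in the 2 genotypes, with both at or past 0.2925 on the log2 scale, so that the single P4htm-/- pair of arrays moved one way and the single WT pair the other. The difference was not tested, since each group has 1 array. With a lower response in P4htm-/- than in WT cortex, the interactions were -1.48 for Cd1d1, a lipid antigen presenter, -1.26 for 1110017D15Rik, -1.03 for Serpinb1b, -0.99 for Oxt, -0.92 for Nthl1, -0.89 for Susd3, -0.81 for 2900009J06Rik, -0.80 for Cox7c and -0.73 for Rpl12. With a higher response they were 0.74 for Vgll3, 0.76 for Cdkl1, 0.80 for Uevld and 0.94 for Gm4432. For Cd1d1 the WT contralateral value of 4.77 lay at background. With the mean of the probe sets of a gene, the value was -0.69 for Cd1d1, -0.34 for Cox7c and 0.35 for Uevld. The other probe set above background on all arrays gave 0.06 for Vgll3 and 0.2 for Cdkl1.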

How the results depend on the processing

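Each count was called at 1.5-fold. The total of 253 calls was 451 with no detection filter, 100 with background at the 99th percentile and 11 at 2-fold. The 182 calls with a negative interaction were 320, 79 and 10 under the same settings, and 116 with the slope on the mean response removed. The 71 calls with a positive interaction were 131, 21 and 1 under the same 3 settings, 43 with the mean of probe sets and 47 with all arrays above background. Weaker genes were 281 without a filter, 8 at 2-fold and 81 without the slope, stronger genes 96, 2 and 92, and opposite genes 74 without a filter, 1 at 2-fold and 19 with the mean of probe sets. Calls led by the ipsilateral side were 259 without a filter and 6 at 2-fold, and those led by the contralateral side 192, 5 and, with all arrays above background, 58. Negative calls outnumbered positive ones in each of these and the other alternatives run.

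The slope over all detected genes was -0.306 per unit of mean response. Its removal, which by construction sets injury genes against the trend of all genes, left 78 injury genes with a negative and 141 with a positive interaction and a median of 0.157, turned the phagocyte list to 0.092, moved the interferon list to 0.289 and the choroid plexus list to -0.115, and reversed Ccl12 to 0.53 and Ttr to 0.78. The interferon median was 0.045 with the mean of probe sets and 0.16 with gene span removed, and the cytosolic ribosomal median -0.16 with gene span removed. Cyclic loess and median centring kept all counts within 1.5 times. Of the values of 122 named genes under alternatives, 545 moved by less than the receptor SD and 65 by more, the 2 reversed ones included. Only genes with an interaction past 1.5-fold could count as reversed. Sign changes of the other named genes are not among these 2. Dim signal limits the precision most below a level of 6. No paired analysis was possible because each group has 1 array, and for the same reason no replicate could be left out.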

Other observations

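A few gene groups outside the comparisons above had their own values. Of 20 detected circadian clock genes, 15 had a positive and 4 a negative interaction, with a median of 0.085, and none was called; Per2, a core repressor of the clock, had 0.37, and its probe sets ran between -0.12 and 0.37. Of 23 oligodendrocyte and myelin genes, 15 were negative and 8 positive, with a median of -0.09, none called, and Aspa (aspartoacylase) at -0.50. Zic1, a transcription factor of thalamus and meninges, read 9.22 and 9.50 in P4htm-/- ipsilateral and contralateral cortex, against 9.83 and 9.36 in WT cortex, an interaction of -0.75, and its other probe set gave -0.42. The reading of P4htm by its other probe set was 7.57 on both P4htm-/- arrays, against 9.15 and 9.28 on the WT ipsilateral and contralateral arrays.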
